A study of Mus musculus with 2 samples.

Results

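Transcripts of 7 genes that mark pancreatic duct cells, Krt19, Krt7, Sox9, Spp1, Muc1, Cftr and Car2, were followed in isolated mouse pancreatic islets. The members are the probes whose symbol in the authors' deposited table is 1 of these names, which gave 7 probes, 1 for each gene, of 55681 probes and 24278 gene symbols in all. All 7 passed the filter on dim probes, as did 37491 probes of the series. The mice, C57BL/6J aged 8 weeks, had lost 60% of the pancreas by surgery (pancreatectomy) or had a sham operation, and islets were taken 3 days later. Total RNA was labelled with Cy3 and read on one-colour arrays. Each group has 4 arrays, called replicates 1 to 4. The labels do not state whether the 4 are different mice or preparations, and p-values here reflect the array-to-array spread alone, part of which may be technical. Values are normalized log2 signals, meaning log2 of the background-corrected spot signal after each array was brought to a common 75th percentile, and differences are pancreatectomy minus sham.

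The ducts of the pancreas carry digestive enzymes from the acini to the gut, and their epithelium adds a fluid rich in bicarbonate. Its cells hold keratins of simple epithelia, a mucin coat on the luminal surface, the chloride and bicarbonate channel Cftr and the carbonic anhydrase Car2, which makes bicarbonate from carbon dioxide. Sox9 is a transcription factor of the embryonic pancreatic progenitor that adult duct cells keep, and growth of duct structures is a known feature of regrowth after partial pancreatectomy in rodents. Several of these genes are also used outside ducts, Spp1 by macrophages and Car2 by red cells and gut epithelium among others. In bulk RNA, fewer cells of a type and less RNA per cell cannot be told apart.

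None of the 7 duct genes passed an adjusted p of 0.05 between pancreatectomy and sham islets (0 of 7). The test was limma with Benjamini-Hochberg adjustment over 30864 features, where 0.622% of features passed, 0.535% higher and 0.0875% lower. An unadjusted limma p under 0.05 was reached by 0 of 7, against 10.6% of all features. Differences were positive for Spp1, Muc1, Car2, Sox9 and Krt19 and negative for Cftr and Krt7, while 44.6% of all features had a positive difference. The median of the 7 was 0.61, against a median of -0.040 over all features. Groups overlapped for each of the 7 genes, while 8.34% of all features had groups that did not overlap. The arrays of the pancreatectomy group fell far apart: Krt19, Sox9, Spp1 and Muc1 were each highest on pancreatectomy replicates 1 and 3, while pancreatectomy replicates 2 and 4 lay within or below the sham range or close to it. Fibroblast and macrophage transcripts were high on those same pancreatectomy replicates 1 and 3.

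The 75th percentile of the signal before scaling was 279 to 636 on pancreatectomy arrays and 177 to 653 on sham arrays. Sham replicate 3 was the dimmest, with 48.1% of probes well above background against 59.1% to 71.4% on the other arrays. Its lowest signal well above background was 5.19 on the normalized log2 scale, against 2.54 to 3.54 elsewhere, so a low value on sham replicate 3 is not measured well. All 9 beta-cell markers, Ins1, Ins2, Iapp and Pdx1 among them, were above background on all 8 arrays, and 0 of the 9 passed the test. Of these, 8 of 9 differences were negative, with a median of -0.37, 2 had groups that did not overlap (22.2%, against 8.34% of all features) and 3 an unadjusted p under 0.05 (33.3%, against 10.6%). The brightest, Ins1 and Ins2, had differences of -0.085 ± 0.34 and -0.15 ± 0.38 (SE), while Nkx6-1, Slc2a2 and Pdx1 had -0.66 ± 0.21, -0.64 ± 0.21 and -0.51 ± 0.15. Albumin (Alb) was 14.89 and 12.61 on pancreatectomy replicates 1 and 4 and 13.79 on sham replicate 4, against 2.11 to 4.89 on the other 5 arrays. Jchain, a plasma cell gene, was 12.09 on pancreatectomy replicate 3 and at most 4.84 on any other array. Sham arrays fill columns 1 and 2 of the single slide and pancreatectomy arrays columns 3 and 4, so slide column and group cannot be told apart.

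**Figure D1:**
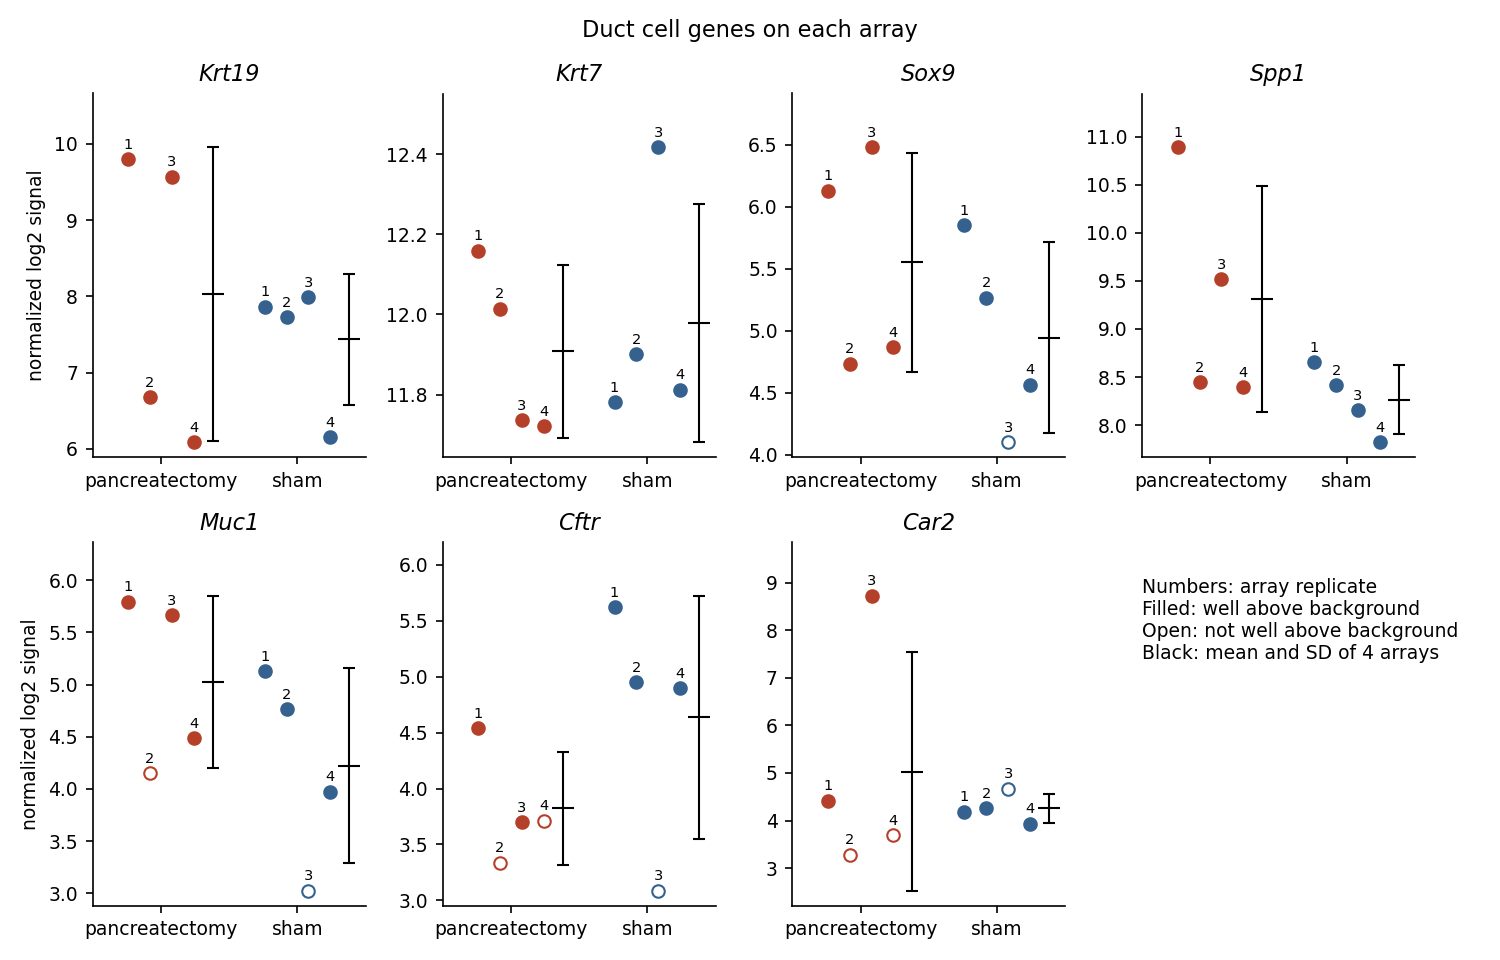
Normalized log2 signal (vertical axis) of the 7 duct genes on 4 pancreatectomy arrays (red, left) and 4 sham arrays (blue, right); numbers are replicates, open points are arrays where the probe was not well above background, and black bars are mean and SD. Krt19, Sox9, Spp1 and Muc1 are highest on pancreatectomy replicates 1 and 3, and the groups overlap in each of the 7 panels.

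The keratins form the intermediate filaments of the duct epithelium, and the 2 on the list did not behave alike. Krt19, the type I keratin most used to mark duct cells, was read by a probe on chromosome 11 at 100002392 to 100002451 (mm9). Its signal was 9.80, 6.68, 9.57 and 6.09 on pancreatectomy replicates 1 to 4, against 7.87, 7.73, 7.99 and 6.15 on sham replicates 1 to 4. Pancreatectomy replicates 1 and 3 lay above every sham array and replicate 4 lay below every sham array. Krt19 averaged 8.03 ± 1.92 in pancreatectomy islets and 7.44 ± 0.86 in sham islets (SD, n = 4 each), a difference of 0.60 ± 0.88 (SE) with a 95% interval from -1.40 to 2.59 (adjusted p = 0.832, limma). The range was 3.71 among pancreatectomy arrays and 1.84 among sham arrays. Leaving out 1 array moved the difference both ways: it was 0.0092 without pancreatectomy replicate 1, 0.084 without pancreatectomy replicate 3 and 0.17 without sham replicate 4, but 1.05 without pancreatectomy replicate 2 and 1.25 without pancreatectomy replicate 4. It was 1.30 with array weights, and without pancreatectomy replicates 1 and 3 together it was -1.05.

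Krt7, a type II keratin that pairs with type I keratins in duct epithelium, was read on chromosome 15 at 101253718 to 101253777 (mm9). It had 12.16, 12.01, 11.74 and 11.72 on pancreatectomy replicates 1 to 4, against 11.78, 11.90, 12.42 and 11.81 on sham replicates 1 to 4. All 8 arrays lay within a narrow band, with the top value on sham replicate 3. Krt7 averaged 11.91 ± 0.22 in pancreatectomy islets and 11.98 ± 0.30 in sham islets (SD, n = 4 each), a difference of -0.070 ± 0.19 (SE). Its 95% interval, from -0.50 to 0.36, is the narrowest of the 7 and leaves room for a change of either sign (adjusted p = 0.916, limma). The sign turned with quantile scaling (0.0059), with array weights (0.019), without sham replicate 3 (0.076) and on the first slide row alone (0.25). Acinar markers moved the other way between arrays, with a mean of -1.65 relative to the sham mean on sham replicate 3, where Krt7 was highest. The beta-cell marker mean was also highest on that array, at 0.39, and Krt7 had r of 0.50 with it over the 8 arrays. Which cells gave the Krt7 signal was not tested.

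Sox9, the transcription factor of progenitors and adult duct cells, was read by 10 spots of 1 probe on chromosome 11 at 112648809 to 112648868 (mm9). It had 6.13, 4.73, 6.48 and 4.87 on pancreatectomy replicates 1 to 4, against 5.85, 5.27, 4.10 and 4.56 on sham replicates 1 to 4. The 2 top arrays were pancreatectomy replicates 3 and 1, and sham replicate 1 came next. Among the repeated spots of 1 array the SD was 0.0988 to 0.199 on 7 arrays. On sham replicate 3 that SD was 0.663 and 1 of 10 spots was well above background. Sox9 averaged 5.55 ± 0.88 in pancreatectomy islets and 4.94 ± 0.77 in sham islets (SD, n = 4 each), a difference of 0.61 ± 0.50 (SE, adjusted p = 0.694, limma). With 1 array left out the difference ran from 0.30, without pancreatectomy replicate 3, to 0.91, without sham replicate 1, and without pancreatectomy replicates 1 and 3 it was -0.14.

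Spp1 encodes osteopontin, a secreted phosphoprotein that binds integrins and Cd44 and is made by duct cells, macrophages and bone cells. Its probe lies on chromosome 5 at 104868502 to 104868561 (mm9). Spp1 had 10.89, 8.45, 9.52 and 8.39 on pancreatectomy replicates 1 to 4, against 8.66, 8.42, 8.16 and 7.82 on sham replicates 1 to 4. Pancreatectomy replicates 1 and 3 lay above every sham array, and pancreatectomy replicates 2 and 4 lay between sham replicates 1 and 3. The averages were 9.31 ± 1.17 in pancreatectomy islets and 8.26 ± 0.36 in sham islets (SD, n = 4 each). This gave the largest positive difference of the 7, 1.05 ± 0.52 (SE), or 2.07-fold, with a 95% interval from -0.13 to 2.23 (adjusted p = 0.520, limma). An exact two-sided permutation test over the 8 arrays gave p = 0.143, where the smallest p that 70 splits allow is 0.0286. With 1 array left out the difference ran from 0.52, without pancreatectomy replicate 1, to 1.36, without pancreatectomy replicate 4, and it was 0.16 without pancreatectomy replicates 1 and 3. The same test gave an exact p of 0.257 for Muc1 and for Cftr, 0.314 for Sox9, 0.514 for Krt19, 0.714 for Krt7 and 0.914 for Car2.

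Muc1 is a transmembrane mucin of the luminal surface, read on chromosome 3 at 89034965 to 89035024 (mm9). Muc1 had 5.80, 4.15, 5.66 and 4.48 on pancreatectomy replicates 1 to 4, against 5.13, 4.77, 3.02 and 3.97 on sham replicates 1 to 4. It was well above background on 3 arrays of each group, and the exceptions were pancreatectomy replicate 2 and sham replicate 3. Pancreatectomy replicates 1 and 3 were the highest arrays, while replicates 2 and 4 fell within the sham range. Muc1 averaged 5.02 ± 0.83 in pancreatectomy islets and 4.22 ± 0.94 in sham islets (SD, n = 4 each), a difference of 0.80 ± 0.53 (SE, adjusted p = 0.625, limma). With 1 array left out the difference ran from 0.40, without sham replicate 3, to 1.10, without sham replicate 1, and it was 0.10 without pancreatectomy replicates 1 and 3, and 0.23 with normexp background correction.

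Cftr, the apical channel for chloride and bicarbonate that drives duct fluid, had the lowest of the 7 differences. Its probe lies on chromosome 6 at 18270974 to 18271033 (mm9). Cftr had 4.54, 3.34, 3.70 and 3.71 on pancreatectomy replicates 1 to 4, against 5.62, 4.95, 3.09 and 4.89 on sham replicates 1 to 4. Sham replicates 1, 2 and 4 lay above every pancreatectomy array, and sham replicate 3 lay below all of them but was not well above background. Pancreatectomy replicates 2 and 4 were not well above background either. The averages were 3.82 ± 0.51 in pancreatectomy islets and 4.64 ± 1.09 in sham islets (SD, n = 4 each), a difference of -0.81 ± 0.51 (SE) with a 95% interval from -1.97 to 0.34 (adjusted p = 0.606, limma). Without sham replicate 3 the difference was -1.33 and still did not pass (adjusted p = 0.135, limma), it was -0.49 without sham replicate 1, and with normexp background correction it was -0.28. Without pancreatectomy replicates 1 and 3 it was -1.11. The lowest adjusted p of Cftr in any alternative was 0.0759, with array weights (-1.08).

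Car2, the cytosolic carbonic anhydrase that duct cells, red cells and gut epithelium use, was high on 1 array. Its probe lies on chromosome 3 at 14900206 to 14900265 (mm9). Car2 had 4.42, 3.28, 8.72 and 3.70 on pancreatectomy replicates 1 to 4, against 4.18, 4.26, 4.67 and 3.93 on sham replicates 1 to 4. Pancreatectomy replicate 3 was 4.46 above the sham mean, and the other 3 pancreatectomy arrays lay within 0.98 of it. Pancreatectomy replicates 2 and 4 and sham replicate 3 were not well above background. Car2 averaged 5.03 ± 2.51 in pancreatectomy islets and 4.26 ± 0.31 in sham islets (SD, n = 4 each), a difference of 0.77 ± 1.05 (SE, adjusted p = 0.819, limma), which was -0.46 without pancreatectomy replicate 3, 1.35 without pancreatectomy replicate 2 and 1.69 with array weights. The gut gene Fabp2 was 12.84 and the B-cell gene Cd79b 12.85 on pancreatectomy replicate 3, against at most 8.23 and 6.08 on any other array.

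**Figure D2:**
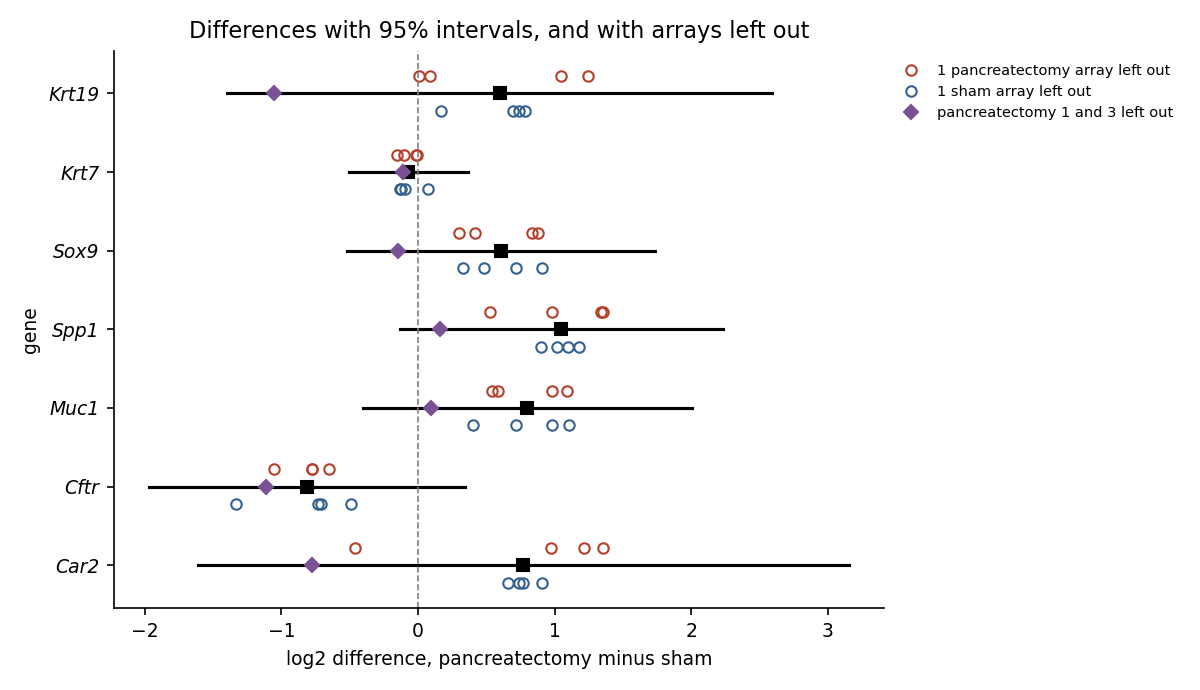
Log2 difference, pancreatectomy minus sham (horizontal axis), of each duct gene (rows): black squares and bars give the estimate and 95% interval, open circles the estimate with 1 pancreatectomy array (red) or 1 sham array (blue) left out, and diamonds the estimate without pancreatectomy replicates 1 and 3. Every interval crosses 0, and the diamonds lie at -1.05 for Krt19, -0.14 for Sox9, 0.16 for Spp1 and 0.10 for Muc1. For Cftr, Car2 and Krt7 they lie at -1.11, -0.77 and -0.11.

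The duct genes were next set against each other over the 8 arrays, as a description in which all points share 1 slide, 1 scaling and whatever cells each preparation held. Of 21 pairs, 16 had a Pearson r above 0. The closest pair was Sox9 and Muc1 (r = 0.97, and 0.96 with group means removed), followed by Krt19 and Spp1 (0.83), Spp1 and Muc1 (0.78), Sox9 and Spp1 (0.77) and Krt19 and Sox9 (0.74). Krt7 stood apart, with r of -0.46 with Muc1, -0.43 with Cftr and -0.40 with Sox9. Sox9 and Muc1 are both not well above background on sham replicate 3, nor is Muc1 on pancreatectomy replicate 2, so their r includes values near background. Pancreatectomy replicates 1 and 3 were the 2 highest arrays for 4 of the 7 genes, a count made after the values were seen, and for 1538 of 30767 features with a value on every array.

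Promoters from RefSeq (GRCm38.p6) were matched for 4 of the 7 genes by symbol, and 3 are shown: Muc1 and Spp1, which moved together across arrays, and Krt7, which did not follow them. Each runs 5′ to 3′ on the plus strand from 250 bases before the annotated start to 50 after it, at chr3:89228806-89229105 for Muc1, chr5:104434861-104435160 for the first of 2 Spp1 starts and chr15:101412153-101412452 for Krt7. Capitals mark matches, on either strand, to the TATA box, the GC box and the CCAAT box, whose letters follow the sequences.
Muc1: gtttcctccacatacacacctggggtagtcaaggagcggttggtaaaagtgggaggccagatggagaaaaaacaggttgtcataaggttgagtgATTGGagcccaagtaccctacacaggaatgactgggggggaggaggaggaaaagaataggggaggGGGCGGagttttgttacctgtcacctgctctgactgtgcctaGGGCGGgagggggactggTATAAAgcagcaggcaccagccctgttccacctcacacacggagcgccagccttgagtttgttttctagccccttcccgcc
Spp1: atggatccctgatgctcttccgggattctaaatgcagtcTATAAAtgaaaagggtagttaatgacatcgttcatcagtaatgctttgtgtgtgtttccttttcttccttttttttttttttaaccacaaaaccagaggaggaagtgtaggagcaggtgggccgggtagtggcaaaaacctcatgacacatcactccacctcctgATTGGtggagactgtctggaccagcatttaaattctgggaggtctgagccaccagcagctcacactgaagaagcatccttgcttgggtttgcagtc
Krt7: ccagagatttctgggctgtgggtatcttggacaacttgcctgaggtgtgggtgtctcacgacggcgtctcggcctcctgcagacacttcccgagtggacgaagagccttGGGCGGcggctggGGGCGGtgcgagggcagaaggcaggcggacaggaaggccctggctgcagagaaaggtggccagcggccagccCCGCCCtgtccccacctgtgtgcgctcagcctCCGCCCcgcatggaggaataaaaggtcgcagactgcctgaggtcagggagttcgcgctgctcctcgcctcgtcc
The motifs searched were the TATA box (TATAAA), the GC box that Sp1 binds (GGGCGG) and the CCAAT box. In this window Muc1 holds TATAAA 31 bases before the start, GGGCGG at 91 and 49 bases before it, and CCAAT on the minus strand. Spp1 holds TATAAA 211 bases before the start, CCAAT on the minus strand at 46 bases before it, and no GGGCGG. Krt7 holds 4 copies of GGGCGG and neither of the other motifs, with a GC content of 66.3%, against 55.7% for Muc1, 45.3% for Spp1 and a median of 52.7% over all promoters. The matched promoter not shown, of Cftr, has 6 copies of GGGCGG, 1 CCAAT, no TATAAA and a GC content of 71.3%. Cftr had r of 0.43 with Muc1 over the arrays, and 0.85 with group means removed. Neither gene was well above background on pancreatectomy replicate 2 or sham replicate 3, so both r include values near background. The other Spp1 start holds none of the motifs. A link between motifs and array pattern was not tested. Of 32851 promoters of the same length, 13.6% hold TATAAA, 35.7% GGGCGG and 37.4% CCAAT. The AP-1 motif, TGANTCA (7.81% of promoters), and a core of Sox motifs, AACAAT (10.7%), were also searched on both strands, and these letters are in none of the 3 windows.

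Genes with the nearest pattern were taken as the 3 of highest r over the 8 arrays, among 16062 others. For Spp1 these were Fbln2 (0.99), a matrix protein, Ctsk (0.99), a cysteine protease, and Pdgfrb (0.99), a receptor of pericytes and stellate cells, and 206 genes had r above 0.9. For Krt19 they were Kcnk6 (0.97), a potassium channel, Pdpn (0.97), a mucin-type glycoprotein of lymphatic and stromal cells, and Dtx4 (0.96). For Car2 they were Ryr1 (0.99), a calcium release channel, Chst3 (0.99), a sulfotransferase, and Ccr7 (0.99), a chemokine receptor of lymphocytes. For Muc1 they were Vav3 (0.97), Sox9 (0.97) and Slc25a24 (0.97), and for Sox9 they were Muc1 (0.97), Tspan14 (0.96) and Clic6 (0.96). Krt7 was nearest to Ddit4 (0.96), a stress-induced inhibitor of mTOR signalling, Khdc4 (0.95) and Oma1 (0.95), and Cftr to Cers2 (0.98), Rgs16 (0.98) and Ercc2 (0.98). Car2 was 8.72 on pancreatectomy replicate 3 and at most 4.67 on any other array, and 177 genes had r above 0.9 with it. Its r thus rests largely on that array. Car2 and Cftr were each not well above background on pancreatectomy replicates 2 and 4 and sham replicate 3. Their r includes values near background.

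Marker lists of other cells were read on the same arrays, as the mean difference from the sham mean. Of 12 fibroblast and stellate markers 0 passed, 12 had positive differences and the median was 1.23, and their mean was 2.84, -0.022, 2.15 and 0.046 on pancreatectomy replicates 1 to 4, against -0.34 to 0.44 on sham arrays. Their summed normalized signal was 10837 to 124462 on pancreatectomy arrays and 7608 to 13779 on sham arrays, and 10 of the 12 were above background on all 8 arrays. Its brightest genes, the collagen Col1a2 and the proteoglycan Dcn, had differences of 1.64 ± 0.95 and 0.69 ± 0.48 (SE). Of 13 macrophage markers 0 passed, 11 had positive differences and the median was 0.62, with means of 1.69, -0.47, 1.28 and -0.019 on pancreatectomy replicates 1 to 4, against -0.27 to 0.19 on sham arrays, and sums of 23681 to 37585 and 25488 to 39540. The brightest macrophage probes, of the integrin Itgam and the receptor Csf1r, had -0.47 ± 0.27 and 0.033 ± 0.20, while the other probes gave -0.15 and 0.39 for Itgam, whose sign thus turned with the probe, and 0.26 and 0.42 for Csf1r. Cd163 was the 1 marker of that list not well above background on any array. Spp1 had r of 0.96 with the fibroblast mean and 0.87 with the macrophage mean over 8 arrays, and Krt19 had 0.88 and 0.85. Sox9 had 0.81 and 0.66, Muc1 0.78 and 0.63, Car2 0.58 and 0.62, Krt7 0.073 and 0.16, and Cftr -0.00064 and -0.054. The part of these cells in the values of the duct genes was not tested.

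Acinar markers, digestive enzymes such as Cpa1, Pnlip and Ctrb1, were present on every array, with summed normalized signal of 380516 to 1185534 on pancreatectomy arrays and 247425 to 1142140 on sham arrays. Of 17 acinar markers 0 passed, 15 had positive differences with a median of 0.14, and 16 were above background on all 8 arrays. Their mean was -0.59, 0.15, 1.29 and 0.23 on pancreatectomy replicates 1 to 4, against 1.23, 0.30, -1.65 and 0.12 on sham replicates 1 to 4. The brightest, the amylase Amy2a5 and the chymotrypsinogen Ctrb1, had differences of 0.098 ± 0.33 and 0.56 ± 0.59 (SE), and a second Amy2a5 probe gave 0.28. Sox9 and Muc1 had r of 0.63 and 0.62 with this mean, Cftr 0.47, Krt19 0.017 and Krt7 -0.90. Sox9 and Muc1 had higher r with the fibroblast mean, 0.81 and 0.78, and with the gut epithelial marker mean, 0.72 and 0.65. Sham replicate 3, lowest in acinar markers, also held the lowest values of Sox9, Muc1 and Cftr, and it was the dimmest array. What share of those low values comes from exocrine tissue or from dim signal was not tested.

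Gut epithelial markers had a mean of 2.01 on pancreatectomy replicate 3 and -0.39 to 0.48 on the other 7 arrays, and B-cell and plasma cell markers had 4.29 there and -0.64 to 0.33 elsewhere. In both lists 0 genes passed, with 7 of 9 gut and 5 of 7 B-cell differences positive and medians of 0.54 and 0.62. Summed gut marker signal was 7838 to 18228 on pancreatectomy arrays and 7747 to 13443 on sham arrays, and that of the B-cell list was 558 to 15186 and 703 to 1056. A sum is weighted toward the brightest genes of a list. On sham replicate 3 the gut sum was 13443 while the gut mean was -0.39. The brightest gut markers, Vil1 and Lgals4, averaged 12.98 and 9.29 in pancreatectomy and 13.06 and 8.78 in sham islets, and the brightest B-cell markers, Cd79a and Cd22, 9.02 and 7.74 against 9.36 and 7.11. The Cd79a difference was -0.34 on that probe and 0.38 on its other probe. Cdx2 and Muc2, defining genes of gut epithelium, were well above background on 2 pancreatectomy arrays each and on 0 sham arrays. The other genes of the list were detected in both groups. Vil1, Fabp2, Lgals4 and Dpep1 were above background on all 8 arrays, and Cdx1 and Cdh17 on 3 arrays of each group. Lgr5, Guca2a and Sis were above it on 4 pancreatectomy and 3 sham arrays, and Guca2b on 2 and 1. Car2 had r of 0.98 with the B-cell mean and 0.87 with the gut mean, both set by pancreatectomy replicate 3, and the part of these cells in the Car2 value was not tested. Of 7 mesothelial markers, Upk3b, Upk1b and Lrrn4 were not well above background on any array, and of 3 mesothelial, 5 erythroid and 13 hepatocyte markers tested 0 passed. Summed hepatocyte marker signal was 112470 to 299942 on pancreatectomy arrays and 113583 to 313431 on sham arrays, summed erythroid signal 6164 to 10412 and 3641 to 5686, and summed mesothelial signal 4828 to 8743 and 7246 to 14493. The hepatocyte mean was 4.47 and 3.68 on pancreatectomy replicates 1 and 4 and 4.41 on sham replicate 4, against -1.79 to 0.17 elsewhere. The hepatocyte sum was still 189692 on sham replicate 1 and 120010 on pancreatectomy replicate 2, where that mean was -1.36 and -1.39. The sum thus does not follow the mean.

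**Figure D3:**
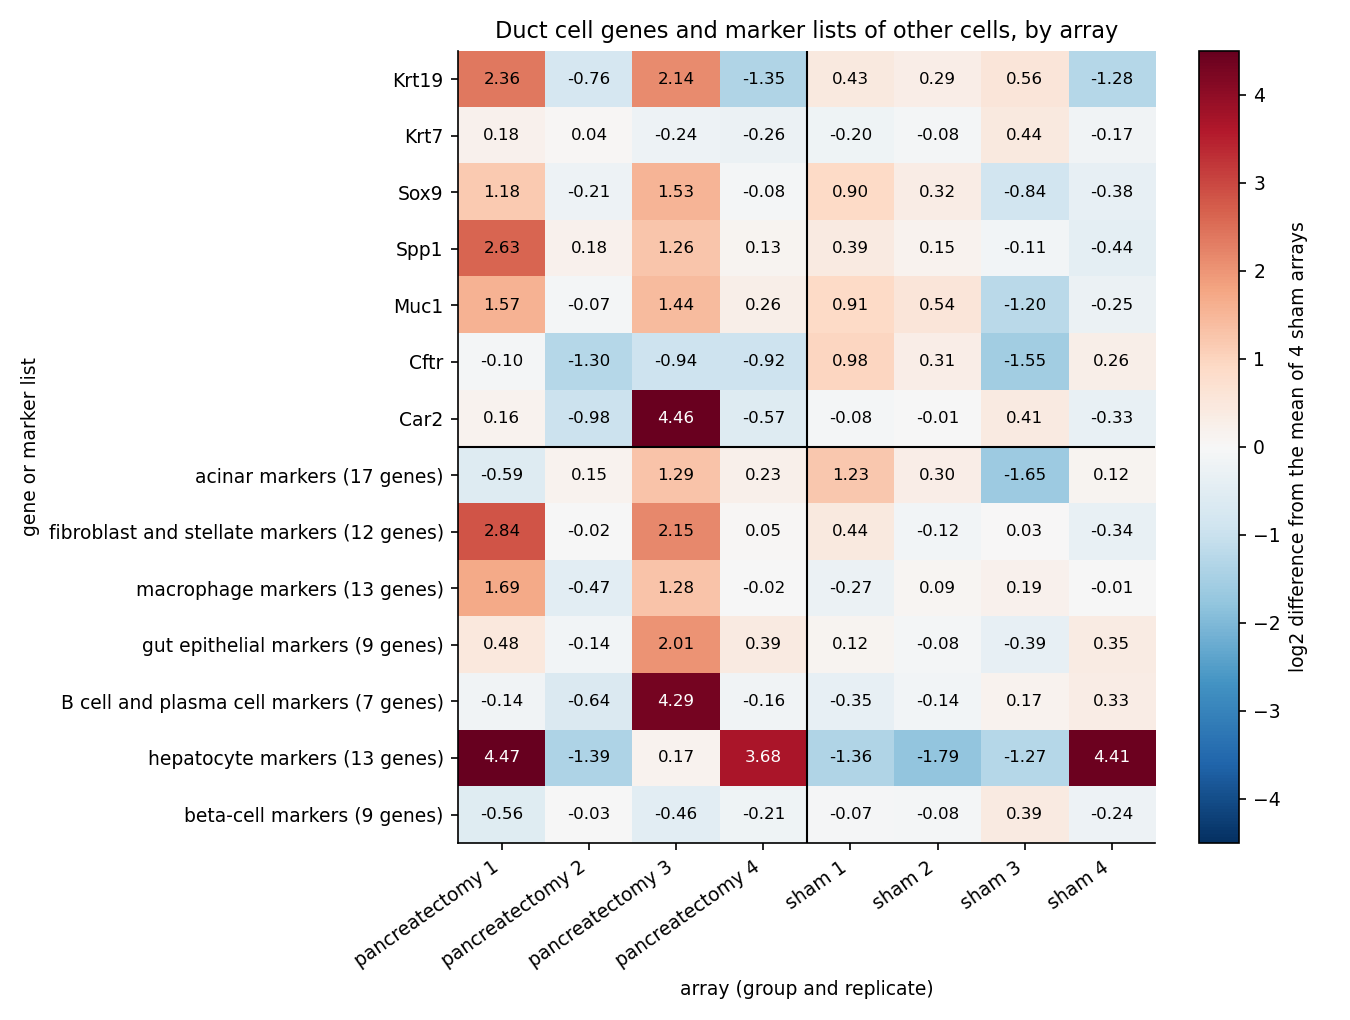
Log2 difference from the mean of the 4 sham arrays (colour and printed value) for each duct gene (upper rows) and for the mean of each marker list (lower rows), by array (columns, pancreatectomy left). Krt19, Sox9, Spp1 and Muc1 share high values with the fibroblast and macrophage lists on pancreatectomy replicates 1 and 3, Car2 is 4.46 on pancreatectomy replicate 3, and Krt7 stays between -0.26 and 0.44.

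Wider duct genes were read from 5 lists, and of 60 genes tested (65 listed) 0 passed in either direction, limma giving 7 at an unadjusted p under 0.05 (11.7%, against 10.6% of all features). Of the 60, 34 differences were positive and 26 negative, with a median of 0.031, where 44.6% of all features were positive. Groups did not overlap for 7 of them, or 11.7%, against 8.34% of all features. Over the 8 arrays, r with the transport list mean was 0.89 for Krt19, 0.88 for Car2 and lowest for Cftr (-0.18). With the secreted and surface mean it was 0.92 for Sox9, 0.85 for Muc1 and lowest for Krt7 (-0.38). It ran from -0.34 (Cftr) to 0.69 (Car2) with the keratin and adhesion mean. With the transcription factor mean it ran from -0.079 (Krt7) to 0.62 (Cftr), and with the cilium mean from -0.58 (Spp1) to 0.49 (Cftr).

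Among epithelial keratins and adhesion genes 12 were tested, with a median of -0.040. Krt18, the partner of Krt8 in simple epithelia, had a level of 15.24 in pancreatectomy and 15.01 in sham islets, a difference of 0.24 ± 0.24 (SE). Cldn4, a tight junction claudin, had 9.23, 8.76, 8.97 and 9.07 on pancreatectomy replicates 1 to 4, against 9.30, 9.76, 9.45 and 9.69 on sham replicates 1 to 4. All its pancreatectomy arrays lay below all its sham arrays, with a difference of -0.54 ± 0.17 (SE, adjusted p = 0.301, limma), and its other probe gave -0.33. Tspan8, a tetraspanin of duct and gut epithelium, had 0.36 ± 0.23.

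Of 11 transcription factors tested, 7 had negative differences and the median was -0.17. Onecut1, a factor of the developing duct, had -0.95 ± 0.68 and Prox1 -0.56 ± 0.21 (SE). Foxa2, a factor of duct and endocrine cells alike, was at 13.69 in pancreatectomy and 14.22 in sham islets, a difference of -0.52 ± 0.22, with -0.39 on a second probe.

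Ion, bicarbonate and water transport gave 17 tested genes with a median of 0.23. Car9, a carbonic anhydrase induced by hypoxia, had 8.77, 4.67, 8.62 and 3.36 on pancreatectomy replicates 1 to 4, against 4.19, 4.21, 3.92 and 4.57 on sham replicates 1 to 4. Replicates 1 and 3 again stood apart, and the difference of 2.14 ± 1.15 (SE) did not pass (adjusted p = 0.555, limma). Car12, another membrane carbonic anhydrase, had 0.66 ± 0.29 and Kcnn4, a calcium-activated potassium channel, 0.54 ± 0.36. Atp1b1, a subunit of the sodium pump, was at 13.36 in pancreatectomy and 13.27 in sham islets. Slc4a4, the basolateral bicarbonate carrier of duct cells, had 0.43 ± 0.24, with 0.13 and 0.40 on its other probes, and Sctr, the secretin receptor, 0.23 ± 0.14, with 1.00 on its second probe.

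Secreted and surface proteins gave 11 tested genes, 10 of them positive, with a median of 0.64. Tff3, a trefoil peptide of mucous epithelia, had 6.96, 6.44, 11.52 and 6.03 on pancreatectomy replicates 1 to 4, against 5.46, 5.74, 5.62 and 5.47 on sham replicates 1 to 4. Every pancreatectomy array lay above every sham array, replicate 3 by far the most, with a difference of 2.17 ± 1.06 (SE, adjusted p = 0.514, limma). Mmp7, a metalloproteinase of injured duct epithelium, had 1.60 ± 1.33 and Lgals3, a galectin of duct cells and macrophages, 1.46 ± 0.85. Lgals3 was 12.91 and 12.38 on pancreatectomy replicates 1 and 3, 9.05 and 9.27 on replicates 2 and 4, and 9.18 to 9.79 on sham arrays. Clu, the secreted chaperone clusterin, was at 15.29 in pancreatectomy and 14.65 in sham islets. The mean of the list was 1.01 and 2.07 on pancreatectomy replicates 1 and 3, 0.034 and 0.064 on replicates 2 and 4, and -0.48 to 0.49 on sham arrays.

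Cilium and polycystic genes, whose products sit in the primary cilium of duct cells or give rise to cysts when lost, gave 9 tested genes with a median of -0.21. Dcdc2a, a doublecortin-domain protein of the cilium, had 6.90, 7.63, 7.12 and 7.21 on pancreatectomy replicates 1 to 4, against 8.06, 8.10, 7.96 and 7.95 on sham replicates 1 to 4. All pancreatectomy arrays lay below all sham arrays, with a difference of -0.80 ± 0.18 (SE, adjusted p = 0.123, limma), the lowest adjusted p of the 60 genes. It passed without pancreatectomy replicate 2, where 0.590% of all features passed, and it passed with Cldn4 under array weights, where 3.23% of all features and 3.33% of these 60 genes did. Kif3a, a motor of ciliary transport, had -0.65 ± 0.23, with -0.12 on a second probe, and Ift88, which carries cargo along the cilium, -0.49 ± 0.27.

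**Figure D4:**
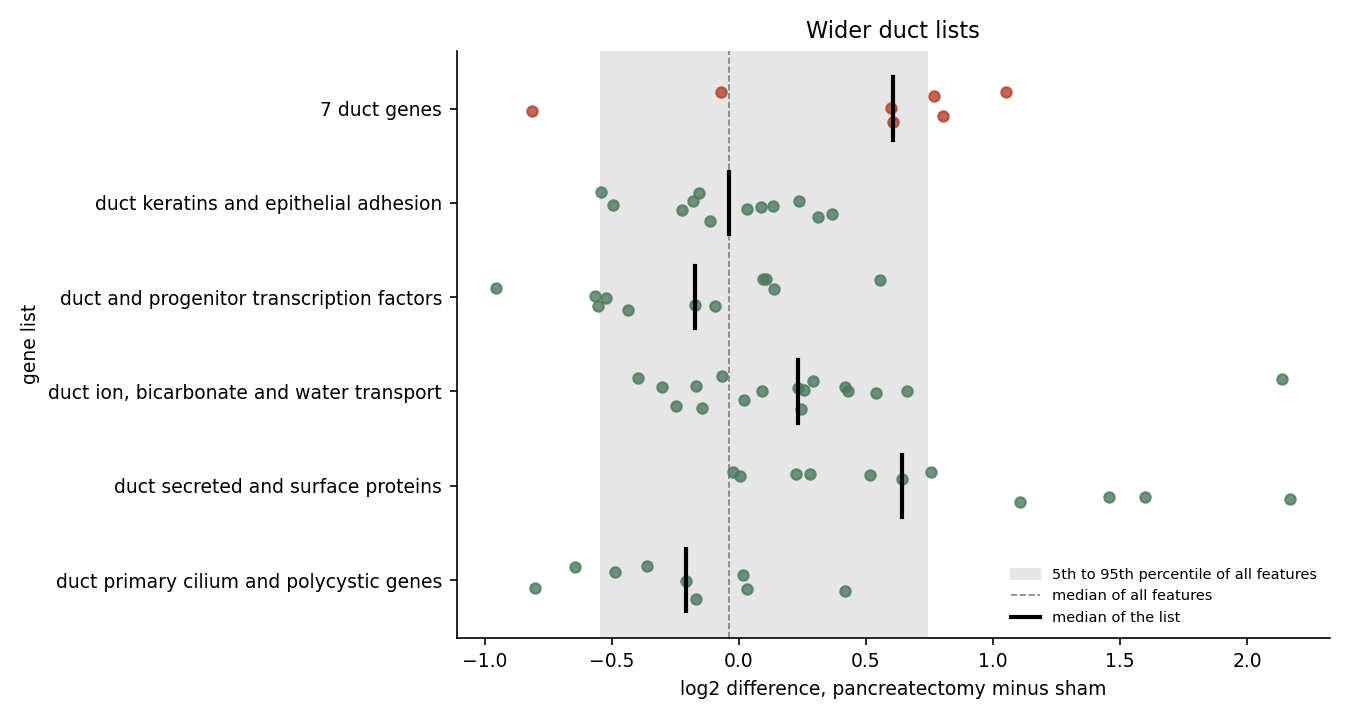
Log2 difference, pancreatectomy minus sham (horizontal axis), of the 7 duct genes (red) and of the tested genes of the 5 wider duct lists (green), with list medians as black bars and the range from the 5th to the 95th percentile of all features in grey. The 7 duct genes have a median of 0.61 and the secreted and surface list 0.64, while the cilium list lies at -0.21.

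Partners of the members were read too. Of 4 genes of the Sox family tested, 0 passed and the median was 0.096: Sox17, an endothelial and biliary factor, had 0.72 ± 0.30, with 0.45 on a second probe, while Sox4 had 0.16 ± 0.49. Sox17 was 7.49, 6.35, 7.51 and 6.53 on pancreatectomy replicates 1 to 4, against 5.87 to 6.44 on sham arrays. The mean of the 4 Sox genes relative to the sham mean was 0.32, 0.40, 0.24 and -0.051 on those pancreatectomy arrays. Sox5, at 13.98 in pancreatectomy and 13.99 in sham islets, had -0.0056 ± 0.23. Of 10 receptor genes for osteopontin 0 passed and the median was 0.42. Their mean relative to the sham mean was 0.82, 0.12, 0.76 and -0.0023 on pancreatectomy replicates 1 to 4, against -0.081 to 0.062 on sham arrays. Spp1 had r of 0.89 with that mean over the 8 arrays. Cd44, the hyaluronan receptor that also binds osteopontin, had 9.75, 10.34, 10.31 and 10.32 on pancreatectomy replicates 1 to 4, against 9.26, 9.54, 9.75 and 9.48 on sham replicates 1 to 4. Unlike Spp1, its lowest pancreatectomy array was replicate 1, which was level with the highest sham array to 2 decimals, and the difference was 0.67 ± 0.19 (SE, adjusted p = 0.240, limma). Its other 3 probes gave 0.97, 1.02 and 1.14, the last with an adjusted p of 0.0857 where every probe was tested with limma. Integrin alpha 4 (Itga4) had 0.99 ± 0.55 and integrin beta 3 (Itgb3) 0.90 ± 0.40, with 0.61 on a second probe, and integrin beta 5 (Itgb5) was at 11.29 in pancreatectomy and 11.45 in sham islets.

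The authors' deposited table gives 1 mean per group and probe, with no value per array. In the authors' deposited table Spp1 was at 0.897 in pancreatectomy and -0.162 in sham, a difference of 1.06 on its log2 scale. In the authors' deposited table Cftr was at -0.312 in pancreatectomy and 0.494 in sham, a difference of -0.81. All 7 differences in the authors' deposited table had the sign found here, from -0.81 for Cftr to 1.06 for Spp1, and those group means alone do not show the split among the pancreatectomy arrays.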

How the data were processed

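Per the file headers, the deposited spot intensity is linear, background-subtracted and detrended by Feature Extraction 10.7.3.1, with no scaling between arrays (the submitters' processing notes name version 9.1). The authors' deposited table of the series holds, for each group, a mean raw intensity and a mean log2 value after a 75th percentile shift in GeneSpring GX 12.5, per the file headers. Its centring is not stated, and over 37491 probes its differences had a slope of 0.999 against those computed here.

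Here, 59305 non-control spots per array were used, without non-uniform or population outlier spots (113 to 228 per array), and log2 signals were shifted to a common 75th percentile. Repeat spots of 1 probe entered as their mean. Probes were kept if well above background on at least 4 of 8 arrays with at least 3 values in each group, and a gene is its brightest kept probe. Symbols were updated through Entrez IDs with a GRCm38.p6 gene table. The test was limma 3.58.1 (R 4.3.3, lmFit and eBayes, Benjamini-Hochberg over 30864 features, threshold 0.05 on the adjusted p). With 4 arrays per group, precision was limited throughout, and the SE of a feature had a median of 0.22. Of the 7 duct genes, 6 had a higher SE, 0.50 to 1.05, at the 93.8th to 99.1st percentile of all features. These 6 were read on the same arrays, and their SD reached 2.51 in pancreatectomy islets (Car2) and 1.09 in sham islets (Cftr). The members and gene lists were chosen with earlier results of these data known. Genes named from the wider lists are, per list, those past the threshold, up to 3 with the largest absolute difference and the brightest 1; each marker list gives its brightest 2; each member gives the 3 symbols of highest r. Slc4a4, Sctr, Alb, Jchain, Fabp2, Cd79b, Nkx6-1, Slc2a2, Pdx1 and the genes named only for being above background or not were added after their values were seen. Some genes that this rule names are not reported here. Normexp used the median spot signal, since no mean signal column was present, a setting chosen after seeing the data. Exon and UTR annotation on mm9 was not used here.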

Additional observations from a re-analysis of the deposited data

Results flagged for a closer look

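Krt19 on sham replicate 4 stood apart from the other sham arrays, at 6.15 against 7.73 to 7.99. The mean of the cilium and polycystic list on pancreatectomy replicate 2 was -0.057, apart from -0.32 to -0.29 on the other pancreatectomy arrays. The hepatocyte marker mean on sham replicate 4 was 4.41 above the sham mean, against -1.79 to -1.27 on the other sham arrays. The B-cell and plasma cell marker mean on pancreatectomy replicate 3 was 4.29, against -0.64 to -0.14 on the other pancreatectomy arrays. These 4 were singled out by a gap test among 48 sets of 4 arrays, and chance alone singles out about 5% of sets.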

How the results depend on the processing

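Of 24 alternatives with a test, 20 called 0.0583% to 3.23% of all features and 0 of the 7 duct genes. The other 4 (each slide row alone, without the 3 arrays with liver transcripts, and pancreatectomy replicate 2 against sham replicates 1, 2 and 3) called 0 features with limma and say nothing about the calls. The median of the 7 differences, 0.61 as reported, was 0.25 with normexp, 0.026 and 0.97 on the first and second slide row alone, 0.084 to 1.05 when any 1 array was left out, -0.14 without pancreatectomy replicates 1 and 3, and -0.34 for pancreatectomy replicate 2 against sham replicates 1, 2 and 3, where the lone pancreatectomy array is assumed to vary like the sham arrays. The count of wider duct genes past the threshold, 0 as reported, was 2 of 60 (3.33%) with array weights, where 3.23% of all features passed, and 1 without pancreatectomy replicate 2, where 0.590% did, and 0 to 1 when any 1 array was left out. Signs turned for Krt7 with quantile scaling (0.0059), array weights (0.019), the first slide row alone (0.25) and without sham replicate 3 (0.076). They turned for Sox9 (-0.13) and Car2 (-0.37) on the first slide row alone, and for Car2 without pancreatectomy replicate 3 (-0.46). Without pancreatectomy replicates 1 and 3 they turned for Krt19 (-1.05), Sox9 (-0.14) and Car2 (-0.77). For pancreatectomy replicate 2 against sham replicates 1, 2 and 3 they turned for Krt19 (-1.19), Sox9 (-0.34), Muc1 (-0.15) and Car2 (-1.09). With any 1 array left out, Krt7 gave -0.15 to 0.076 and Car2 -0.46 to 1.35. The cause was not tested. Spp1 and Cftr kept their sign in every alternative, from 0.036 to 1.36 and from -1.35 to -0.28. With the slide row as a replicate block, the differences were those reported and 0 of 7 passed. No paired analysis was possible because the labels give no numbers that pair arrays across groups. Signal over background limits Muc1, Cftr, Car2 and Sox9, which the filter for all 8 arrays above background left out.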
